A study of Homo sapiens with 30 samples.

Results

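CD248, also called endosialin or tumour endothelial marker 1, the receptors PDGFRA and PDGFRB, their ligands PDGFA and PDGFC, and the surface glycoprotein THY1 (CD90) were measured at the transcript level in SW1783 cells, a line established from a human astrocytoma. These 6 genes, of 60675 in the count table, were chosen by name with earlier results of the same libraries known. Which comparison led to the choice is not recorded, so their own levels, fold changes and calls are a description and no test is rested on them. All 6 passed the filter on low counts and were among the 19632 genes tested.

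For 24 h the cells received a 70% ethanol extract of 1 of 4 herbal mixtures taken for digestive complaints, at doses labelled 500, 100 and 20 µg/mL. Each dose had 3 libraries for Bojungikgi-tang, 3 for Sayeok-tang, 2 for Banhasasim-tang (replicates 2 and 3) and 1 for Yijung-tang. There were 3 vehicle libraries, with DMSO at 0.1% by their labels and at 2% by the series' design text. For extracts that inhibited growth below the top dose, that text sets an inhibitory concentration as the highest dose, but every label reads 500. The sample codes differ by set: vehicle carries E1, Sayeok-tang and Bojungikgi-tang carry 15, and Yijung-tang and Banhasasim-tang carry 14. What a set stands for is not stated. Totals per library lay between 28.01 and 59.9 M (mega) counts on genes. Whether replicates were separate cultures is not stated either, and the p-values then cover no more than the spread among these libraries, which may be technical.

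CD248 is a transmembrane glycoprotein with a C-type lectin-like domain that is made mainly by pericytes, fibroblasts and other mesenchymal cells, among them the stroma of tumours. PDGFRA and PDGFRB are receptor tyrosine kinases that dimerise on binding of PDGF ligands and drive growth and migration of the same kinds of cell, and PDGFRA is also a known oncogene of glial tumours. PDGFA is secreted as a dimer that binds PDGFRA, whereas PDGFC is secreted in a latent form and must be cleaved before it binds. THY1 is a lipid-anchored surface glycoprotein of fibroblasts, neurons and mesenchymal stromal cells that binds integrins.

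The astrocyte label was set against its markers. GFAP, the intermediate filament of astrocytes, stood at 0.0816 CPM (the count relative to the library total after TMM scaling) in vehicle, S100B at 0.211 CPM, and the water channel AQP4 at 0 in all 3 vehicle libraries and in 18 of 30 libraries. SLC1A3, GJA1 and SOX9, which astrocytes share with other cells, stood at 34.6, 243 and 73.9 CPM. Of 8 fibroblast and pericyte markers, the collagen gene COL1A1 stood at 3318 CPM and the proteoglycan CSPG4 at 191 CPM, and the other 6 lay between 1.93 CPM for KCNJ8 and 63.6 CPM for COL3A1. The epithelial keratins KRT7 and KRT18 stood at 621 and 222 CPM, with EPCAM and CDH1 at most at 0.114 CPM in any library. GFAP, S100B and AQP4 thus lay at or near 0, and the line is called here by its name. In bulk RNA, fewer cells of a type and less RNA per cell cannot be told apart.

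Per length of merged exons, THY1 was the most abundant of the 6 genes in vehicle, at 70.8 CPM per kilobase. PDGFC followed at 11.4 and PDGFRB at 10.4 CPM per kilobase. PDGFA stood at 5.33, PDGFRA at 3.02 and CD248 at 1.88 CPM per kilobase. On GRCh38 with GENCODE v29, CD248 is a single-exon gene on the minus strand of chromosome 11, at chr11:66314487-66317044. Its transcript is 65.4% G+C, a value that 97.09% of tested genes do not exceed. PDGFRA is at chr4:54229097-54298247 on the plus strand, PDGFRB at chr5:150113837-150155872 and PDGFA at chr7:497258-520296 on the minus strand. PDGFC is at chr4:156760454-156971394 and THY1 at chr11:119417378-119424985, both on the minus strand. THY1 overlaps THY1-AS1 on the opposite strand, which stood at 14.3 to 25.6 CPM over the libraries. The library kit keeps strand, but no source states the strand setting of the counting, so reads of that pair may not be fully separated.

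The promoter table at hand, from RefSeq on GRCh38.p14, held windows of 300 bases, from 250 before to 50 after a start site, for 3 of the 6 genes. Those of the receptors are shown because the PDGFRA and PDGFRB transcripts were low together at the top dose of Banhasasim-tang, and one of PDGFA because that ligand was not. PDGFRA has windows at chr4:54229043-54229342 and chr4:54233710-54234009, both on the plus strand. The PDGFRB window is at chr5:150155796-150156095 and the PDGFA window shown at chr7:520177-520476, both on the minus strand. Sequences run 5′ to 3′, and capitals mark matches to the motifs described after them.
PDGFRA upstream window: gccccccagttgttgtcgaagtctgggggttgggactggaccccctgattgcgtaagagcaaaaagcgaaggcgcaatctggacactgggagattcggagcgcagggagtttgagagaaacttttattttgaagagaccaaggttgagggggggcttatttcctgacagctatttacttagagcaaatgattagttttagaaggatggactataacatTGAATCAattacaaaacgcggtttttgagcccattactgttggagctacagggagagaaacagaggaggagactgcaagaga
PDGFRA downstream window: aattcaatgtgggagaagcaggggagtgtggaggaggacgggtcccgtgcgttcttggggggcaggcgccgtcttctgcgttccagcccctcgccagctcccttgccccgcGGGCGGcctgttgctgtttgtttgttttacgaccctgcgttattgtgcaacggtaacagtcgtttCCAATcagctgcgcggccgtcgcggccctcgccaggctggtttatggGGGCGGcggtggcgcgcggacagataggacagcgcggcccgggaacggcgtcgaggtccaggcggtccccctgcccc
PDGFRB window: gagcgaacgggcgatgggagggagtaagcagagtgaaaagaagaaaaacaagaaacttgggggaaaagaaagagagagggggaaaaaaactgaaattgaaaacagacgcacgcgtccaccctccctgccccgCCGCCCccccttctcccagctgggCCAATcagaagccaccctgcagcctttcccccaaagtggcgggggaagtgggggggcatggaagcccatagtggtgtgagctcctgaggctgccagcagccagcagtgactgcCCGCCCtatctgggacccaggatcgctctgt
PDGFA window: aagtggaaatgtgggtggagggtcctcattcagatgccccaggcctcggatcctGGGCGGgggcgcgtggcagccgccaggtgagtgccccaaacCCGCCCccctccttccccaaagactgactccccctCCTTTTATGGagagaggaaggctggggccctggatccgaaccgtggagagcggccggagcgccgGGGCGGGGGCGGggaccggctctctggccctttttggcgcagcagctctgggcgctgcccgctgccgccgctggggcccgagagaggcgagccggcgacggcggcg

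Both strands were searched for the GC box (GGGCGG), the CCAAT box (CCAAT), the TATA box (TATAAA), the AP-1 element (TGANTCA), the TEAD element (GGAATG) and the serum response element. The upstream PDGFRA window holds 1 AP-1 element, 32 bases before the start site, and none of the other motifs. An AP-1 element is found in 7.71% of the 35116 windows of the table. The downstream PDGFRA window and the PDGFRB window each hold 2 GC boxes and 1 CCAAT box, motifs found in 45 and 34.6% of windows. The PDGFA window shown holds 4 GC boxes and 1 serum response element, which 1.29% of windows hold. Other PDGFA start sites have windows that are not shown, and those hold GC boxes but no serum response element. Windows were 47 and 66.7% G+C for PDGFRA, 59.3% for PDGFRB and 71.7% for the PDGFA window shown, against a median of 58.7% over the table. A match is a description of letters, and nothing about binding follows from it.

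CD248 transcript was nearly absent at the top dose of Banhasasim-tang. At 500 µg/mL its 2 libraries held 0.625 and 0.422 CPM, from 22 and 21 counts. At 100 µg/mL they held 3.57 and 4.35 CPM, and at 20 µg/mL 6.65 and 5.29 CPM. The doses did not overlap, and the level was lower at each higher dose. Between 500 and 20 µg/mL the log2 fold change was -3.56 ± 0.17 (SE), or 11.8-fold lower, which ranked 107 of 19632 genes by size. Between 100 and 20 µg/mL it was -0.61 ± 0.12. The latter passed the threshold in the full data and did not without replicate 2 at 100 µg/mL (-0.47, adjusted p = 0.0666) or without replicate 2 at 20 µg/mL (-0.42, adjusted p = 0.0901). The former passed under every alternative run, between -3.82 and -3.26.

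In Sayeok-tang the 3 libraries at 500 µg/mL held 3.22, 3.18 and 3.54 CPM of CD248. Those at 100 µg/mL held 6.11, 6.25 and 5.98 CPM, and those at 20 µg/mL held 6.14, 6.81 and 6.03 CPM. Only the top dose lay apart, with a log2 fold change against 20 µg/mL of -0.94 ± 0.10, or 1.92-fold lower. In Bojungikgi-tang CD248 stood at 6.54, 6.14 and 6.73 CPM at 500 µg/mL and at 6.96, 6.30 and 6.86 CPM at 20 µg/mL. These overlapped, and the log2 fold change of -0.05 ± 0.09, with a 95% interval of -0.23 to 0.13, did not pass the threshold. Taken as a difference of log2 fold changes, the dose change of Banhasasim-tang minus that of Bojungikgi-tang was -3.51 ± 0.20, and minus that of Sayeok-tang it was -2.61 ± 0.21. That of Sayeok-tang minus that of Bojungikgi-tang was -0.89 ± 0.13. All 3 differences of CD248 passed the threshold.

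Over all 13 groups the order of CD248 ran from Banhasasim-tang 500 at 0.524 ± 0.144 CPM (SD, n = 2) and Sayeok-tang 500 at 3.31 ± 0.198 (SD, n = 3) to Bojungikgi-tang 20 at 6.71 ± 0.357 (SD, n = 3). The single Yijung-tang 500 library, at 3.85 CPM, lay within the range of Banhasasim-tang 100. Vehicle, at 4.80 ± 0.312 CPM (SD, n = 3), overlapped neither neighbour. From Yijung-tang 100 upwards the 8 remaining groups lay between 5.73 and 6.71 CPM, and the range of each overlapped the next.

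**Figure D1:**
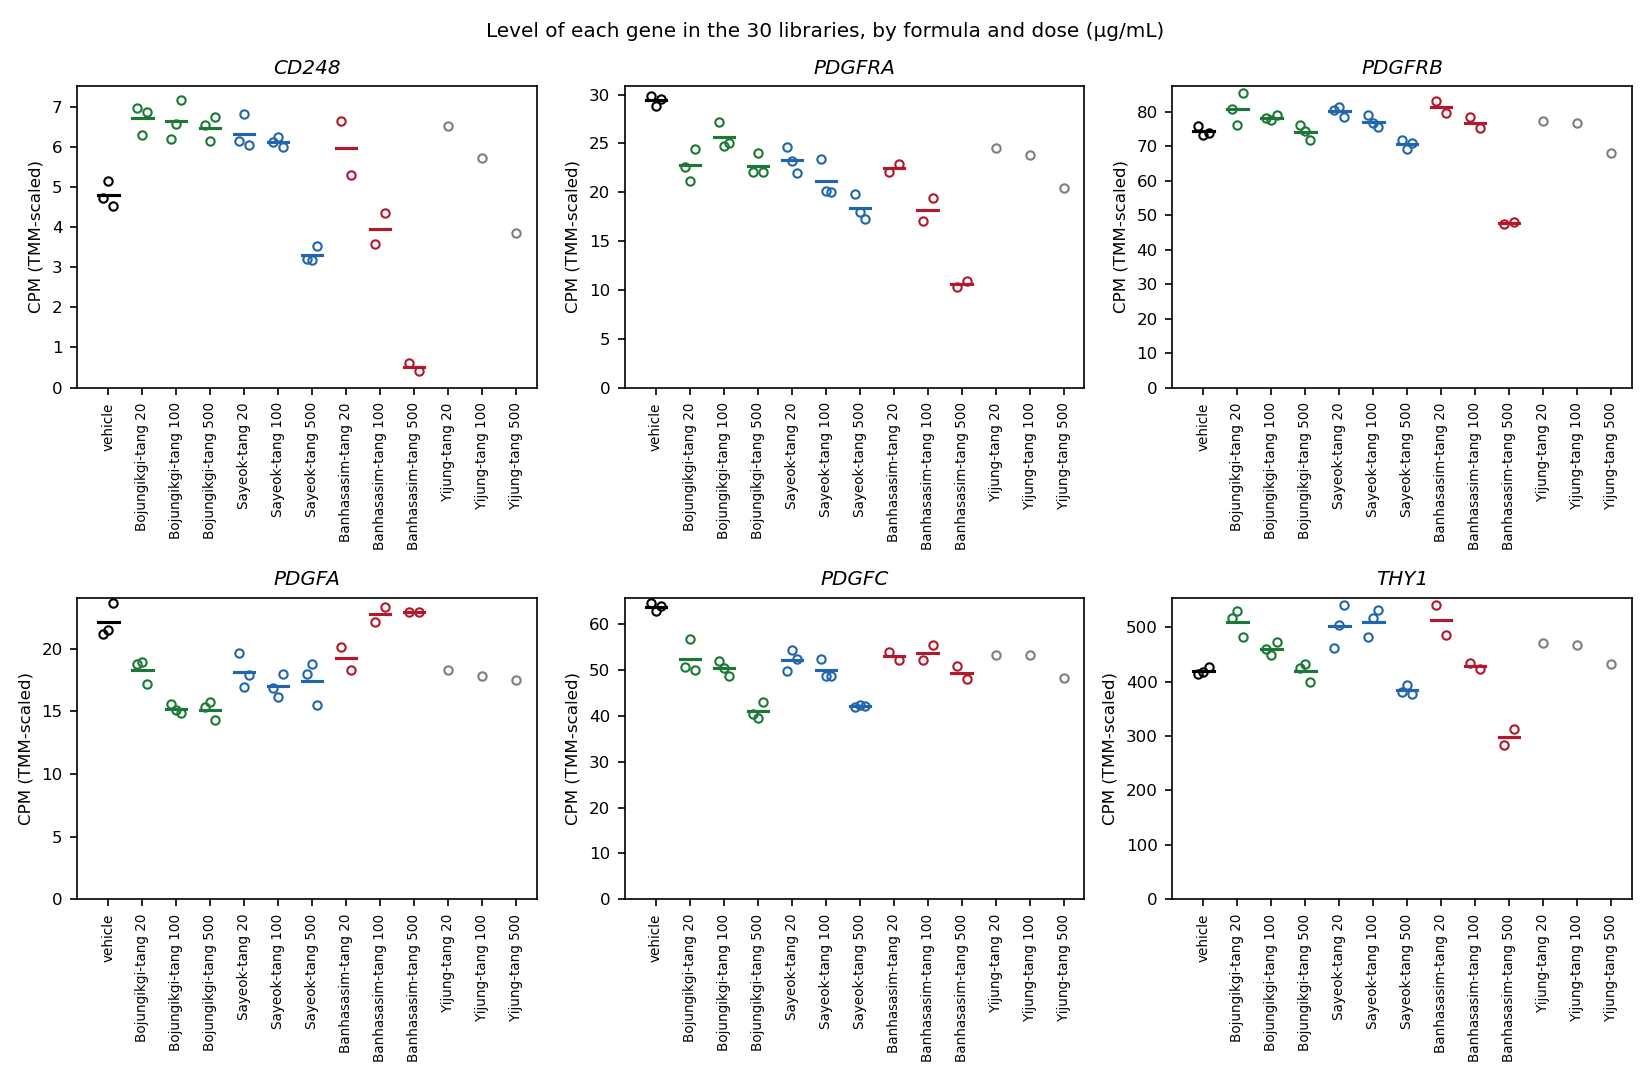
Level of each of the 6 genes in every library, in TMM-scaled CPM on a linear axis from 0, by formula and dose in µg/mL. Circles are libraries and bars are group means; Yijung-tang has 1 library per dose. CD248, PDGFRA, PDGFRB and THY1 were lowest in Banhasasim-tang at 500 µg/mL, where CD248 fell to 0.625 and 0.422 CPM.

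PDGFRA, the receptor for PDGFA and for activated PDGFC, also lay lowest at the top dose of Banhasasim-tang. Banhasasim-tang at 500 µg/mL held 10.3 and 10.9 CPM, against 17.05 and 19.4 at 100 µg/mL and 22.03 and 22.9 at 20 µg/mL. The 3 doses did not overlap. The log2 fold change from 20 to 500 µg/mL was -1.08 ± 0.09, or 2.11-fold lower, and from 20 to 100 µg/mL it was -0.31 ± 0.08. The latter was lost without any of 3 libraries, with values down to -0.21 (adjusted p = 0.326 without replicate 2 at 100 µg/mL). Sayeok-tang at 500 µg/mL held 19.8, 18.03 and 17.2 CPM of PDGFRA and at 20 µg/mL 24.7, 23.2 and 21.98 CPM. The groups did not overlap, with a log2 fold change of -0.34 ± 0.07. Bojungikgi-tang held 22.1, 23.99 and 22.04 CPM at 500 µg/mL and 22.6, 21.2 and 24.5 CPM at 20 µg/mL, which overlapped. Its log2 fold change was -0.00 ± 0.07, with a 95% interval of -0.14 to 0.13.

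PDGFRB, which binds PDGF dimers containing PDGFB or PDGFD and is a marker of pericytes, showed one low group. Banhasasim-tang at 500 µg/mL held 47.4 and 48.1 CPM, whereas its 100 µg/mL libraries held 78.4 and 75.3 and its 20 µg/mL libraries 83.2 and 79.6 CPM. The log2 fold change from 20 to 500 µg/mL was -0.77 ± 0.05, or 1.70-fold lower. From 20 to 100 µg/mL it was -0.08 ± 0.05 and did not pass. Sayeok-tang at 500 µg/mL held 72.0, 69.2 and 70.9 CPM against 80.5, 81.4 and 78.5 at 20 µg/mL, without overlap and with a log2 fold change of -0.18 ± 0.04. In Bojungikgi-tang the values were 76.2, 74.4 and 71.8 against 80.7, 76.2 and 85.6 CPM. Those groups overlapped, and the log2 fold change of -0.12 ± 0.04 passed the threshold (adjusted p = 0.0248) but did not without replicate 3 at 20 µg/mL (-0.08, adjusted p = 0.175), nor without any of 3 others.

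The dose change of both receptors was more negative in Banhasasim-tang than in the other formulas. For PDGFRA the dose change differed from that of Bojungikgi-tang by -1.07 ± 0.11 and from that of Sayeok-tang by -0.74 ± 0.11 on the log2 scale. For PDGFRB these differences were -0.64 ± 0.06 and -0.59 ± 0.06. All 4 passed the threshold. Sayeok-tang and Bojungikgi-tang differed for PDGFRA by -0.34 ± 0.09 (adjusted p = 0.0372), which was lost without any of 9 libraries, between -0.36 and -0.29 over those. For PDGFRB that difference was -0.06 ± 0.05, with a 95% interval of -0.17 to 0.05, and did not pass.

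In Banhasasim-tang neither ligand was called lower at 500 than at 20 µg/mL. PDGFA stood at 23.0 and 22.9 CPM in Banhasasim-tang at 500 µg/mL, at 22.2 and 23.4 CPM at 100 µg/mL and at 20.2 and 18.3 CPM at 20 µg/mL. Against vehicle, where the label set also differs, PDGFA did not pass at 500 µg/mL (0.06 ± 0.07 on the log2 scale) or at 20 µg/mL (-0.20 ± 0.07). The top and bottom doses of Banhasasim-tang did not overlap. The log2 fold change between them, 0.25 ± 0.08 (edgeR adjusted p = 0.0121), was in the direction opposite to that of PDGFRA. Without replicate 3 at 20 µg/mL it was 0.19 (adjusted p = 0.139) and no longer passed, with library size as the only scaling it was 0.18 (adjusted p = 0.0599), and without replicate 3 at 500 µg/mL its adjusted p was 0.0543. In Bojungikgi-tang PDGFA stood at 15.4, 15.7 and 14.4 CPM at 500 µg/mL, at 15.6, 15.1 and 14.9 CPM at 100 µg/mL and at 18.8, 18.9 and 17.2 CPM at 20 µg/mL. Both higher doses lay below the lowest one, with log2 fold changes of -0.27 ± 0.07 for each, but at 100 µg/mL the call (adjusted p = 0.0418) was lost without any of 5 of the 6 libraries. In Sayeok-tang PDGFA stood at 15.5 to 18.8 CPM at 500 µg/mL and at 16.98 to 19.6 CPM at 20 µg/mL, which overlapped, with a log2 fold change of -0.05 ± 0.07.

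Between 500 and 20 µg/mL PDGFC was called lower in the other pair of formulas. Bojungikgi-tang at 500 µg/mL held 40.5, 39.5 and 43.0 CPM against 50.7, 56.8 and 50.01 CPM at 20 µg/mL, and Sayeok-tang held 41.9, 42.5 and 42.2 CPM against 49.8, 54.5 and 52.4 CPM. Neither pair of doses overlapped, and the log2 fold changes were -0.36 ± 0.05 and -0.31 ± 0.05. In Banhasasim-tang the values were 50.9 and 48.1 CPM at 500 µg/mL and 54.0 and 52.1 CPM at 20 µg/mL. The log2 fold change there was -0.10 ± 0.06, with a 95% interval of -0.22 to 0.02, and did not pass. Against vehicle, where the label set also differs, PDGFC at 500 µg/mL was called lower in Banhasasim-tang (-0.37 ± 0.05 on the log2 scale). It was also called lower in Bojungikgi-tang (-0.64 ± 0.05) and in Sayeok-tang (-0.60 ± 0.05). The dose change of PDGFC in Banhasasim-tang differed from that in Bojungikgi-tang by 0.25 ± 0.08 and from that in Sayeok-tang by 0.21 ± 0.08. The latter only just passed (adjusted p = 0.0492) and was lost under 5 of the 8 alternatives that kept all libraries.

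THY1 was lower at 500 than at 20 µg/mL in all 3 replicated formulas. Against vehicle, where the label set also differs, THY1 at 500 µg/mL passed only in Banhasasim-tang (-0.49 ± 0.06 on the log2 scale). It did not pass in Sayeok-tang (-0.13 ± 0.05) or in Bojungikgi-tang (-0.003 ± 0.05). Banhasasim-tang at 500 µg/mL held 284 and 313 CPM, against 434 and 423 at 100 µg/mL and 542 and 485 at 20 µg/mL. The doses did not overlap, and the log2 fold changes against 20 µg/mL were -0.78 ± 0.07 at 500 and -0.26 ± 0.07 at 100 µg/mL. The latter was lost without replicate 2 at 20 µg/mL (-0.18, adjusted p = 0.272) and without either library at 100 µg/mL. In Sayeok-tang THY1 stood at 382, 394 and 377 CPM at 500 µg/mL and at 462, 503 and 541 CPM at 20 µg/mL, with a log2 fold change of -0.39 ± 0.05. In Bojungikgi-tang it stood at 425, 432 and 399 CPM against 516, 530 and 483 CPM, with a log2 fold change of -0.28 ± 0.05. No top-dose library of either formula reached its 20 µg/mL range. In Banhasasim-tang THY1-AS1 was also low at 500 µg/mL, with a mean of 14.9 CPM against 21.8 CPM at 20 µg/mL. At 100 µg/mL, where THY1 was below its 20 µg/mL level, THY1-AS1 stood at 22.1 CPM. The part of THY1-AS1 in the THY1 counts was not tested.

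Counted by comparison at an adjusted p under 0.05, Banhasasim-tang at 500 against 20 µg/mL called 5 of the 6 genes, 4 lower and 1 higher, where 43.7% of all tested genes were called. Sayeok-tang called 5, all lower, where 20.5% of all tested genes were called (10.6% as lower). Bojungikgi-tang called 4, all lower, where 15.5% of all tested genes were called (8.90% as lower). At 100 against 20 µg/mL Banhasasim-tang called 3, all lower, where 6.59% of all tested genes were called (2.96% as lower). Bojungikgi-tang called PDGFA alone, lower, where 1.55% of all tested genes were called (1.10% as lower). Sayeok-tang called 0, by edgeR and by DESeq2 alike, where 0.0306% of all tested genes were called, and 1 gene, PDGFRA, had an unadjusted p under 0.05. The median log2 fold change of the 6 genes at 500 against 20 µg/mL was -0.78 in Banhasasim-tang, -0.32 in Sayeok-tang and -0.20 in Bojungikgi-tang, where the median of all tested genes was 0.01, 0.00 and -0.00. Since the genes were picked with such results known, nothing is read from these counts.

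**Figure D2:**
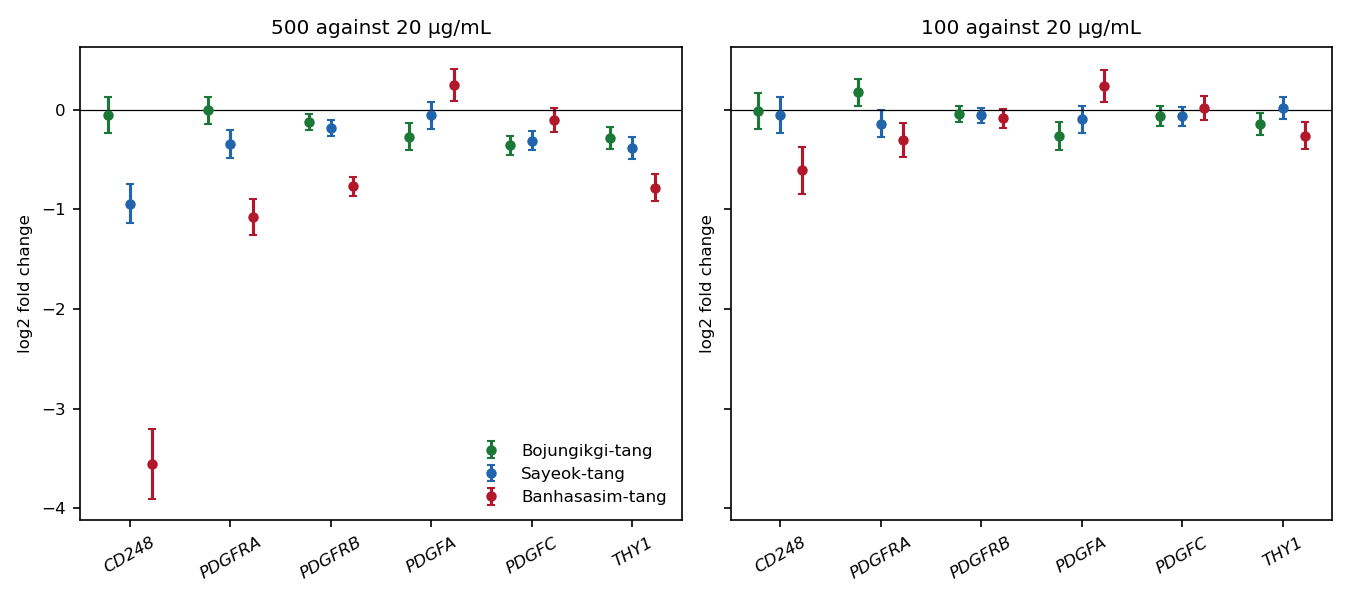
Log2 fold change of each gene at 500 (left) and 100 (right) against 20 µg/mL within each formula, with 95% intervals from the edgeR fit. The CD248 change of -3.56 in Banhasasim-tang lies far below the others, PDGFA is the gene whose value in that formula is positive at both doses, and at 100 µg/mL the Sayeok-tang intervals lie close to 0.

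At 500 µg/mL the formulas were also set against each other, in different label sets where Banhasasim-tang was one of the pair. All 6 genes differed between Banhasasim-tang and Bojungikgi-tang, 4 lower and 2 higher in the former, where 47.5% of all tested genes were called. The same split was found against Sayeok-tang, where 41.3% of all tested genes were called. CD248 was lower in Banhasasim-tang by 12.7-fold and 6.46-fold. PDGFA was higher by 1.51-fold and 1.31-fold, and PDGFC by 1.21-fold and 1.17-fold. Between Sayeok-tang and Bojungikgi-tang, which share a label set, 3 genes passed, 2 lower and 1 higher in Sayeok-tang, where 12.6% of all tested genes were called. CD248 had a log2 difference of -0.97 ± 0.09, PDGFRA of -0.30 ± 0.07 and PDGFA of 0.21 ± 0.07, the last with overlapping groups. The dose changes of Banhasasim-tang and Bojungikgi-tang differed for 6 of the 6 genes, 4 lower and 2 higher, where 31.8% of all tested genes were called. Those of Banhasasim-tang and Sayeok-tang differed for 6, again 4 and 2, where 24.4% of all tested genes were called. Those of Sayeok-tang and Bojungikgi-tang differed for 2, both lower, where 4.49% of all tested genes were called (2.37% as lower).

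Yijung-tang, with 1 library per dose, has no replicate check. Its CD248 level was 3.85 CPM at 500 µg/mL, 5.73 at 100 µg/mL and 6.51 at 20 µg/mL, a log2 ratio of -0.75 between the top and bottom doses. PDGFRA stood at 20.4, 23.8 and 24.6 CPM and PDGFRB at 68.0, 76.7 and 77.4 CPM in the same order. PDGFA stood at 17.5, 17.9 and 18.4 CPM, PDGFC at 48.3, 53.3 and 53.3 CPM, and THY1 at 432, 468 and 471 CPM. All 6 genes were lowest at 500 µg/mL.

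Against vehicle, treatment and label set cannot be told apart. Banhasasim-tang at 500 µg/mL called 5 of the 6 genes, all lower, where 51.0% of all tested genes were called (25.1% as lower). Its log2 fold change was -3.24 ± 0.17 for CD248 and -1.47 ± 0.08 for PDGFRA. At 100 µg/mL it called 2, both lower, where 28.1% of all tested genes were called (13.7% as lower). At 20 µg/mL it called 5, 3 higher and 2 lower, where 18.3% of all tested genes were called. Sayeok-tang at 500 µg/mL called 4, all lower, where 38.3% of all tested genes were called (19.4% as lower). At 100 µg/mL it called 5, 2 higher and 3 lower, where 29.2% of all tested genes were called. At 20 µg/mL it called 6, 3 in each direction, where 25.3% of all tested genes were called. Bojungikgi-tang at 500 µg/mL called 4, 1 higher and 3 lower, where 34.6% of all tested genes were called. At 100 µg/mL it called 4, 1 higher and 3 lower, where 22.1% of all tested genes were called. At 20 µg/mL it called 6, 3 in each direction, where 26.2% of all tested genes were called.

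The lowest doses already differed from vehicle for CD248, PDGFRA, PDGFC and THY1, in comparisons of the 3 replicated formulas that share the vehicle libraries. At 20 µg/mL CD248 was higher than vehicle by 0.48 ± 0.10 in Bojungikgi-tang, 0.40 ± 0.10 in Sayeok-tang and 0.32 ± 0.11 in Banhasasim-tang on the log2 scale. PDGFRA was lower, at 22.8 ± 1.65, 23.3 ± 1.35 and 22.5 ± 0.626 CPM (SD, n = 3, 3 and 2) against 29.4 ± 0.536 in vehicle (SD, n = 3). PDGFC was lower, at 52.5, 52.2 and 53.1 CPM against 63.9 in vehicle. PDGFA was called lower in Bojungikgi-tang (-0.27 ± 0.07 on the log2 scale) and in Sayeok-tang (-0.28 ± 0.07). In Banhasasim-tang its value of -0.20 ± 0.07 did not pass. THY1 was higher, by 0.28 ± 0.05 in Bojungikgi-tang, 0.26 ± 0.05 in Sayeok-tang and 0.29 ± 0.06 in Banhasasim-tang on the log2 scale, the last not without replicate 2 at 20 µg/mL (0.21, adjusted p = 0.0836). PDGFRB was called higher in all 3, at 0.12, 0.11 and 0.13, but the call was lost without any 1 of the libraries compared in Sayeok-tang (0.09 to 0.12) and Banhasasim-tang (0.10 to 0.16), without any of 3 in Bojungikgi-tang (0.07 to 0.11), and with the GC offset in each. With an offset for GC content the differences of CD248 were 0.26, 0.19 and 0.09, and none of the 3 passed the threshold. The CD248 call of Banhasasim-tang was also lost without replicate 2 at 20 µg/mL (0.13) and without either of 2 vehicle libraries (0.30 and 0.28). The 7SK RNA, summed over 7 entries, took 0.628 to 2.91 CPM in vehicle and 3.01 to 30.5 CPM in the 27 extract libraries, and its part in these differences was not tested.

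Other genes of the PDGF family were read from a list of PDGF ligands, receptors and related kinases. PDGFB, the main ligand of PDGFRB, was scarce. In Banhasasim-tang it stood at 1.69 and 1.79 CPM at 500 µg/mL against 0.782 and 0.796 CPM at 20 µg/mL, and rose by 1.13 ± 0.26 on the log2 scale (edgeR adjusted p = 0.000883). In Bojungikgi-tang it stood at 0.0669 to 0.338 CPM against 0.703 to 0.715 CPM and changed by -1.71 ± 0.29 (adjusted p = 0.00011). In Sayeok-tang it did not pass, at 0.09 ± 0.23. The dose change of PDGFB differed between Banhasasim-tang and Bojungikgi-tang by 2.84 ± 0.39 (adjusted p = 1.92e-06).

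PDGFD, the other PDGFRB ligand, went from 6.03 and 6.10 CPM to 2.97 and 3.07 CPM in Banhasasim-tang, a log2 fold change of -1.01 ± 0.12 (adjusted p = 4.07e-08), and changed by -0.48 ± 0.09 in Sayeok-tang. In Bojungikgi-tang the value of -0.19 ± 0.08 did not pass. The receptor-like gene PDGFRL, under 1 CPM in every group, passed in none of the formulas, and its largest value was -0.89 ± 0.39 in Banhasasim-tang (adjusted p = 0.0646).

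Of the class III receptor kinases related to the PDGF receptors, KIT and CSF1R were tested and FLT3, at most 0.0353 CPM in any library, was not. KIT, the stem cell factor receptor, went from 54.5 and 56.3 to 25.8 and 28.9 CPM in Banhasasim-tang, a log2 fold change of -1.02 ± 0.08 (adjusted p = 8.61e-12). It changed by -0.70 ± 0.06 in Sayeok-tang and -0.30 ± 0.06 in Bojungikgi-tang, both past the threshold. CSF1R, the receptor of colony-stimulating factor, went from 3.88 and 4.42 to 1.56 and 1.61 CPM in Banhasasim-tang (-1.38 ± 0.15), changed by -0.54 ± 0.11 in Sayeok-tang and did not pass in Bojungikgi-tang, at 0.07 ± 0.10. Of the 7 genes listed, 6 were tested. In Banhasasim-tang 4 fell and 1 rose, in Sayeok-tang 3 fell and in Bojungikgi-tang 2 fell, with median log2 fold changes of -0.95, -0.29 and -0.11. Over all tested genes 43.7, 20.5 and 15.5% were called in these comparisons. Of those calls 51.2, 48.2 and 42.7% were higher and the rest lower, which holds for every list below.

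CSF1R also stands in a list of 5 myeloid and lymphoid markers, whose summed level ran from 17.4 to 17.9 CPM in vehicle and from 4.66 to 5.14 CPM in Banhasasim-tang at 500 µg/mL. PTPRC made up most of that sum, at 13.8 CPM in vehicle, while AIF1 was at 0 in 26 of 30 libraries and CD3E in 27. The part of other cells in these results was not tested. Endothelial markers summed to between 23.3 and 30.7 CPM over all libraries, and CDH5 was at 0 in 16 of them. KDR made up most of the endothelial sum, at 28.2 CPM in vehicle, where TEK was next at 1.27 CPM.

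Of 9 genes that activate or hold PDGF ligands, 4 fell in Bojungikgi-tang, 3 in Sayeok-tang and 3 in Banhasasim-tang, and 0 rose, where 15.5, 20.5 and 43.7% of all tested genes were called. PLAT, the tissue plasminogen activator that cleaves latent PDGFC, fell by 0.31 on the log2 scale in Bojungikgi-tang (-0.31 ± 0.04, adjusted p = 1.11e-05) and by 0.20 in Sayeok-tang, and stood at -0.08 ± 0.05 in Banhasasim-tang. PLAU, the urokinase gene, went from 94.4 to 116 CPM at 20 µg/mL to 61.5 to 62.6 CPM at 500 µg/mL in Sayeok-tang, a log2 fold change of -0.71 ± 0.05. Its dose change there was lower than in Bojungikgi-tang by -0.54 ± 0.07 (adjusted p = 2.26e-05). The proprotein convertase FURIN fell by 0.27 and the proteoglycan HSPG2 by 0.39 on the log2 scale in Banhasasim-tang, the second not without any 1 of the 4 libraries. A2M, the protease inhibitor that binds PDGF, stood below 1 CPM and changed by -0.93 ± 0.30 in Bojungikgi-tang (adjusted p = 0.0304), a call lost without any of 4 libraries.

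Among 20 adaptors, effectors and phosphatases of the receptors, 4 rose and 7 fell in Banhasasim-tang, 5 fell in Sayeok-tang and 3 fell in Bojungikgi-tang, where 43.7, 20.5 and 15.5% of all tested genes were called. With library size as the only scaling, 2 rose and 10 fell in Banhasasim-tang, and 3 rose and 1 fell in Bojungikgi-tang. RASA1, the RAS GTPase-activating protein that docks on PDGFRB, went from 67.6 and 70.2 to 122 and 129 CPM in Banhasasim-tang, a log2 fold change of 0.86 ± 0.05 (adjusted p = 9.59e-14). It went the other way in Sayeok-tang (-0.37 ± 0.04) and in Bojungikgi-tang (-0.17 ± 0.04, lost with library size as the only scaling and with the compared groups only). The dose change of RASA1 differed between Banhasasim-tang and Sayeok-tang by 1.23 ± 0.07 (adjusted p = 1.44e-13). CAV1, the caveolar coat protein that associates with PDGF receptors, fell in all 3 formulas, with log2 fold changes of -0.79 ± 0.04, -0.52 ± 0.04 and -0.53 ± 0.04 in Banhasasim-tang, Sayeok-tang and Bojungikgi-tang. The median of the list was -0.01 in Banhasasim-tang, beside 0.01 over all genes.

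Most pericyte and stromal markers were lower at the top dose of Banhasasim-tang. Of 19 listed genes 17 were tested, and 15 fell and 1 rose, where 43.7% of all tested genes were called and 51.2% of those calls were higher. In Sayeok-tang 11 fell, where 20.5% of all tested genes were called (10.6% as lower). In Bojungikgi-tang 5 fell and 1 rose, where 15.5% of all tested genes were called (8.90% as lower). The medians were -0.42, -0.23 and -0.10 on the log2 scale. KCNJ8, a potassium channel subunit of pericytes, went from 2.48 and 2.58 to 0.623 and 0.796 CPM in Banhasasim-tang (-1.85 ± 0.16, adjusted p = 2.89e-10). ENG, the endoglin co-receptor for TGF-beta, went from 331 and 339 to 157 and 184 CPM (-0.98 ± 0.06). The gene that rose, RGS5, is named here for being the exception, after its values were seen. Its log2 fold change was 0.39 ± 0.13 (adjusted p = 0.0184), and the call was lost without any of 3 of the 4 libraries, without the filter, by DESeq2 and when only library size was scaled for.

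Among the contractile genes of this list, ACTA2, smooth muscle actin, fell in Bojungikgi-tang (-0.89 ± 0.05), Sayeok-tang (-0.77 ± 0.05) and Banhasasim-tang (-0.74 ± 0.06). TAGLN was called lower in Bojungikgi-tang (-0.63 ± 0.06) and in Banhasasim-tang (-0.42 ± 0.08), and stood at -0.35 in Sayeok-tang. VCAM1, a cell adhesion molecule, changed by -0.54 ± 0.11 in Sayeok-tang (adjusted p = 0.000997), and did not pass in Banhasasim-tang (-0.08 ± 0.14) or in Bojungikgi-tang (0.09 ± 0.11). A list of 8 fibroblast and pericyte markers summed to 1686 to 1751 CPM in Banhasasim-tang at 500 µg/mL and to 3580 to 3719 CPM in vehicle, and COL1A1 made up most of both. The 8 astrocyte markers summed to 211 to 212 CPM there and 348 to 358 CPM in vehicle. Both sums were thus low in the group where CD248 and the receptors were lowest. In Bojungikgi-tang the fibroblast and pericyte sum was 3071 to 3173 CPM at 500 µg/mL and 3690 to 4079 CPM at 20 µg/mL. The astrocyte sum there was 313 to 315 CPM at 500 µg/mL and 307 to 317 CPM at 20 µg/mL. Between these doses of that formula CD248 and PDGFRA did not pass, and PDGFRB (-0.12 ± 0.04) and THY1 (-0.28 ± 0.05) were called lower. In Sayeok-tang the astrocyte sum was 292 to 301 CPM at 500 µg/mL and 306 to 310 CPM at 20 µg/mL. Its fibroblast and pericyte sum was 2642 to 2840 CPM and 3606 to 3760 CPM at those doses. The part of these cell markers in the changes was not tested.

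CD248 belongs to a small family of C-type lectin-like membrane proteins with THBD, CD93 and CLEC14A, of which CLEC14A was not tested. THBD, thrombomodulin, went the opposite way to CD248. It went from 5.41 and 5.41 to 57.6 and 59.3 CPM in Banhasasim-tang, a log2 fold change of 3.43 ± 0.16 (adjusted p = 5.13e-14). THBD rose by 1.24 ± 0.14 in Sayeok-tang and by 1.03 ± 0.14 in Bojungikgi-tang, where CD248 did not pass. CD93, a receptor of the same family, was picked out after its values were seen and rose by 1.13 ± 0.24 in Banhasasim-tang (adjusted p = 0.000285).

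Of the matrix proteins that CD248 is known to bind, COL1A1 went from 3394 and 3397 to 1452 and 1517 CPM in Banhasasim-tang (-1.19 ± 0.05, adjusted p = 2.54e-17). COL1A1 also fell in Sayeok-tang (-0.44 ± 0.04) and Bojungikgi-tang (-0.32 ± 0.04). Fibronectin (FN1), at 4431 to 4780 CPM in the same Banhasasim-tang libraries, gave -0.11 ± 0.08 and did not pass. COL4A1, another collagen gene of this list, was called lower there at -0.16 ± 0.05 (edgeR adjusted p = 0.0184). With the GC offset only 1 gene of the list was called lower in that formula. Over the 6 tested genes of this list, 2 rose and 2 fell in Banhasasim-tang, 1 rose and 2 fell in Sayeok-tang, and 1 rose and 1 fell in Bojungikgi-tang, beside 43.7, 20.5 and 15.5% of all tested genes called.

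Among 5 partners of THY1, ITGB3, the integrin beta chain that with ITGAV forms a THY1 receptor, went from 11.1 and 11.5 to 31.4 and 32.4 CPM in Banhasasim-tang. Its log2 fold change was 1.497 ± 0.10 (adjusted p = 1.01e-12), and in Sayeok-tang it was 0.41 ± 0.09. SDC4, syndecan-4, a co-receptor for THY1, fell in all 3 formulas, by 0.30, 0.20 and 0.40 on the log2 scale in Banhasasim-tang, Sayeok-tang and Bojungikgi-tang. ITGA5, the alpha chain of a fibronectin receptor, changed by -0.17 ± 0.04 in Bojungikgi-tang. Of the 5 genes, 1 rose and 1 fell in Banhasasim-tang and in Sayeok-tang and 2 fell in Bojungikgi-tang, beside the same 43.7, 20.5 and 15.5%.

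**Figure D3:**
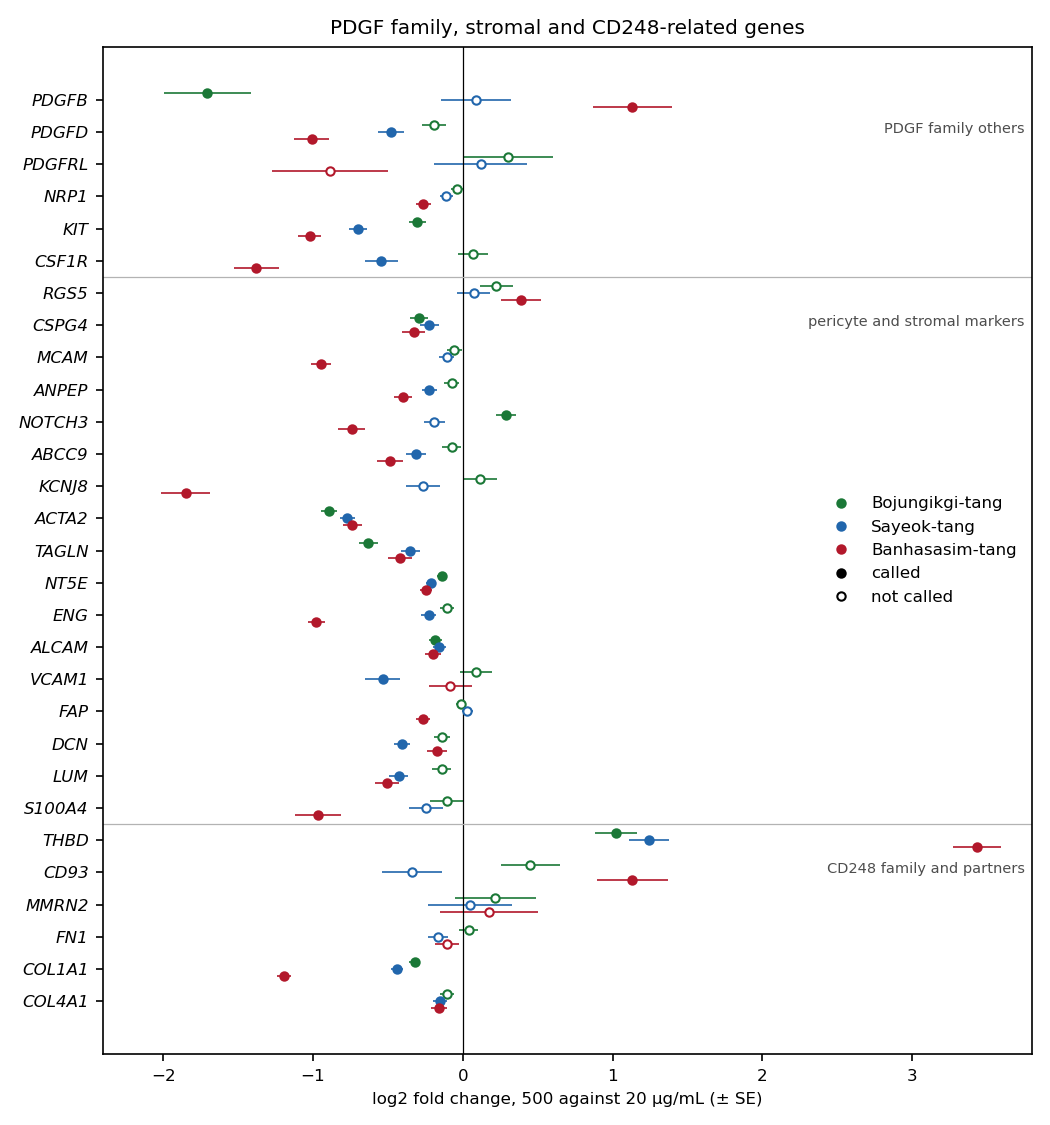
Log2 fold change at 500 against 20 µg/mL with standard errors for the tested genes of 3 lists, by formula, with filled circles for an edgeR adjusted p under 0.05. THBD lies at 3.43 and KCNJ8 at -1.85 in Banhasasim-tang, PDGFB lies on opposite sides of 0 in Banhasasim-tang and Bojungikgi-tang, and 15 of 17 pericyte and stromal markers fell in Banhasasim-tang.

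Across the means of the 12 extract groups, the log2 CPM of CD248 had a Pearson r of 0.97 with PDGFRA, 0.97 with PDGFRB and 0.91 with THY1. It was -0.64 with PDGFA and 0.13 with PDGFC. These describe 12 group means from the libraries already compared. CD248 lay at -0.84 log2 CPM in Banhasasim-tang 500 and next lowest at 1.74 in Sayeok-tang 500, so the former group weighs heavily in each r. By the same measure, over 13966 genes with at least 1 CPM, the genes most like CD248 were C14orf132 (0.995), GAS7 (0.992) and JADE2 (0.991). GAS7 went from 12.01 to 3.79 CPM between 20 and 500 µg/mL of Banhasasim-tang, C14orf132 from 66.0 to 36.1 CPM and JADE2 from 60.1 to 36.5 CPM. None of the 3 fell as far as CD248.

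For PDGFRA the nearest genes were SPATA13 (0.994), PIK3R1 (0.990) and SNRNP48 (0.988). PIK3R1, also in the list of receptor effectors as a regulatory subunit of phosphatidylinositol 3-kinase, went from 56.9 to 33.9 CPM between those doses. For PDGFRB they were AHDC1 (0.993), TRERF1 (0.993) and NOL4L (0.987). TRERF1 went from 33.1 to 12.3 CPM, a larger fall than that of PDGFRB itself. All 9 of these patterns have their lowest point at the top dose of Banhasasim-tang. That follows largely from choosing them by r with genes whose own lowest point lies there, so nothing is read from it.

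**Figure D4:**
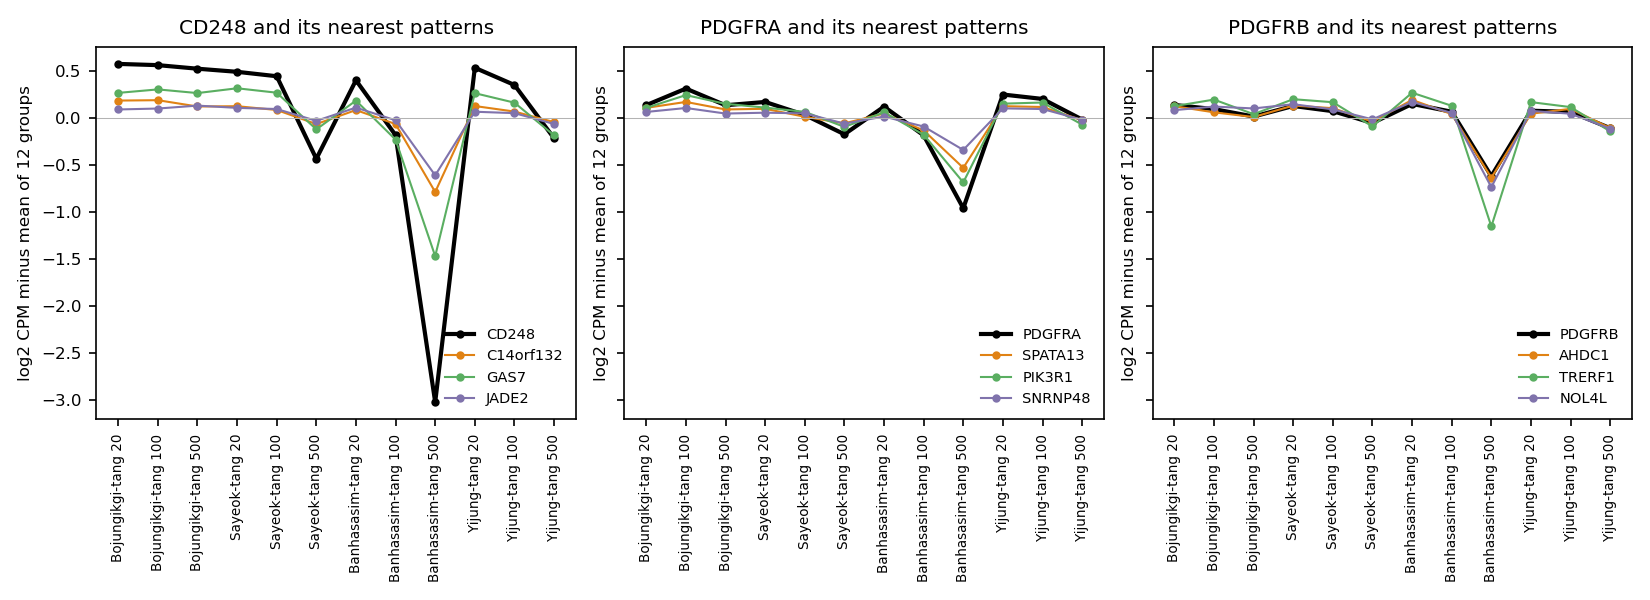
Mean log2 CPM of CD248, PDGFRA and PDGFRB (thick lines) and of the 3 genes most correlated with each (thin lines) in the 12 extract groups, each centred on its own mean over the groups. Every line has its lowest point at Banhasasim-tang 500, which choosing by correlation favours, and that of CD248 is the deepest of the CD248 panel.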

How the data were processed

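RNA of SW1783 cells was collected 24 h after treatment and made into strand-keeping libraries read as paired ends, per the labels' protocols. The authors deposited expected counts per Ensembl gene, estimates that need not be whole, for 60675 genes in 30 libraries, and 0 columns named no sample of the series. Per the submitters' processing notes, the tools were RSEM 1.3.3, STAR 2.7.3a, Trim Galore 0.6.5 and FastQC 0.11.9, on GRCh38. No source used here names the annotation release. RSEM estimates split reads between similar transcripts by a model, and 9.36 to 11.1% of a library's values had a fraction, so every value was rounded before testing. Water extracts and positive control compounds named in the design text were not analysed here.

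Groups came from the labels. Genes were filtered with filterByExpr (minimum count 10) and libraries were scaled by TMM. A model of 13 group means was fitted with edgeR 4.0.16 (R 4.3.3) by robust glmQLFit and tested by glmQLFTest. P-values were adjusted by Benjamini-Hochberg over all 19632 tested genes in each of 21 comparisons, with calls at 0.05. Standard errors are the log2 fold change divided by the square root of F. The procedure was tested on simulated counts. Levels are TMM-scaled CPM, and correlations used log2 CPM with a prior count of 2. The alternatives were RLE factors, library size alone, no filter, a replicate block, a GC offset, both together, DESeq2 1.42.0, only the compared groups, and leaving out each library. Mean chi-square per gene between replicates was 2.43 to 33.2, above sampling noise, and no library was treated as a repeat deposit.

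The 6 genes and all gene lists were chosen with earlier results of these data known. Companion genes are named where they are PDGF ligands or receptors, or among the 2 largest called changes of their list at 500 against 20 µg/mL in a formula, and the genes most like a member are the 3 with the highest r. CD93, FN1, COL4A1 and RGS5 fall outside that rule and were named after their values were seen.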

Additional observations from a re-analysis of the deposited data

Results flagged for a closer look

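The changes between 20 and 500 µg/mL differed between formulas for the following genes, by an interaction test in edgeR across all tested genes, and each value is the difference of 2 log2 fold changes. Between Banhasasim-tang and Bojungikgi-tang it was -3.51 for CD248, -1.07 for PDGFRA, -0.64 for PDGFRB, -0.50 for THY1, 0.52 for PDGFA and 0.25 for PDGFC. The call of PDGFC was lost without replicate 2 at 500 or replicate 3 at 20 µg/mL of Banhasasim-tang, with values of 0.21 and 0.23. Between Banhasasim-tang and Sayeok-tang it was -2.61 for CD248, -0.74 for PDGFRA, -0.59 for PDGFRB, -0.40 for THY1, 0.30 for PDGFA and 0.21 for PDGFC. The call of PDGFA there was lost without any of 5 libraries, between 0.23 and 0.31. Between Sayeok-tang and Bojungikgi-tang it was -0.89 for CD248 and -0.34 for PDGFRA. The comparison of Banhasasim-tang with the others also crosses label sets, and whether the cells of the sets differed in other ways was not tested.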

How the results depend on the processing

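At 500 against 20 µg/mL the calls of CD248, PDGFRA, PDGFRB and THY1 in Banhasasim-tang, of these and PDGFC in Sayeok-tang, and of PDGFA, PDGFC and THY1 in Bojungikgi-tang held under every alternative run. Leaving out a Banhasasim-tang library left 1 in its group, which was then assumed to vary like the other groups. Same-numbered libraries correlated by -0.06 to 0.123 in their deviations from group means. A rule that at least 3 pairs exist and all exceed 0.1 was met in 0 of 18 comparisons. Those with Banhasasim-tang, with 2 pairs each, could not meet it. Sayeok-tang at 100 against 20 µg/mL had 0.104 and 0.123 for replicates 1 and 3. Whether the numbers pair libraries is therefore not settled, and the main model did not pair them. The replicate block moved no count of genes by over 1.5 times and ended 2 calls, CD248 in Banhasasim-tang 20 against vehicle (0.31, adjusted p = 0.0551) and PDGFC between the dose changes of Banhasasim-tang and Sayeok-tang (0.21, adjusted p = 0.0523). PDGFRB in Sayeok-tang 20 against vehicle turned from 0.11 to -0.00486 with the GC offset and to -0.00504 with block and offset together. Of values that were never called, 28 changed sign outside the leave-one-out fits, the largest being 0.12 in size. Counts of the companion lists at 500 against 20 µg/mL also depended on the settings. With the compared groups only, 0 pericyte and stromal markers rose and 2 fell in Bojungikgi-tang, against 1 and 5 in the main run. By DESeq2 3 THY1 partners fell in Sayeok-tang, against 1 in the main run. Causes were not tested.

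Genes called at 100 against 20 µg/mL depended most on the settings. In Banhasasim-tang they numbered 2376 with library size only and 2149 with the compared groups only. In Bojungikgi-tang they were 736 without the filter, 518 by DESeq2 and 6 with the compared groups only, and the 1 call among the 6 genes went to 0 with library size only, the GC offset, block with offset and the compared groups only. In Sayeok-tang they were 172 without the filter, 10 with the GC offset, 18 with block and offset and 30 by DESeq2. For Banhasasim-tang 20 against vehicle 1932 were called with the GC offset, 1793 with block and offset, where 3 of the 6 genes passed, and 5529 with the compared groups only. With the compared groups only, Bojungikgi-tang called 2597 genes at 20 µg/mL against vehicle and 1261 at 500 against 20 µg/mL, and the dose changes of Sayeok-tang and Bojungikgi-tang differed in 463 genes and 1 of the 6.

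Leaving out 1 library gave 3281 to 4965 genes in Banhasasim-tang 100 against vehicle, 1172 to 3178 in Banhasasim-tang 20 against vehicle, 654 to 692 in Banhasasim-tang 100 against 20, 93 to 863 in Bojungikgi-tang 100 against 20 and 1 to 12 in Sayeok-tang 100 against 20 µg/mL. Of the 6 genes, 2 to 4, 0 to 2 and 0 to 1 passed in Banhasasim-tang 20 against vehicle, Banhasasim-tang 100 against 20 and Bojungikgi-tang 100 against 20, and 1 to 2 between the dose changes of Sayeok-tang and Bojungikgi-tang.

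When only library size was scaled for, the median log2 fold change of all genes went from 0.00 to -0.12 and from -0.00 to -0.15 in Banhasasim-tang 500 and 100 against vehicle. At 500 µg/mL it went from 0.01 to -0.15 against either formula, and in the differences of dose changes from 0.02 to -0.11 against Bojungikgi-tang and from 0.01 to -0.10 against Sayeok-tang. Against vehicle the share of calls that were higher went from 50.7 to 34.1, from 51.2 to 17.03 and from 48.7 to 26.4% in Banhasasim-tang at 500, 100 and 20 µg/mL. At 500 µg/mL it went from 52.4 to 27.9% against Bojungikgi-tang and from 51.3 to 24.8% against Sayeok-tang, and in the differences of dose changes from 51.8 to 29.4% and from 49.9 to 27.1%. Against 20 µg/mL it went from 51.2 to 39.3% at 500 and from 55.1 to 15.2% at 100 µg/mL in Banhasasim-tang, from 42.7 to 69.5% and from 29.2 to 55.3% in Bojungikgi-tang, and from 48.2 to 62.8% and from 66.7 to 100% in Sayeok-tang. Few counts limit the precision of CD248 at the top dose of Banhasasim-tang, with 21 and 22, and of PDGFB, at 0.0669 CPM in its lowest Bojungikgi-tang library.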
